A study of Bos taurus with 3 samples.

Results

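The cells described here are the CD3E cells of the newborn rumen in which neither CTSW nor the gene with the identifier ENSBTAG00000055197 was detected. They numbered 59 among 26020 kept barcodes of 3 newborn calves, and all 59 came from calf 3. A barcode was kept with 500 to 4000 detected genes, at most 50000 unique molecular identifiers (UMIs, each a counted transcript molecule) and at most 40% of its UMIs in the 13 mitochondrial coding genes. From the kept barcodes, those with the keratins KRT5, KRT14 and KRT15 summing to under 10 UMIs per 10000 and with BOLA-DRA, an MHC class II chain of antigen-presenting cells, under 30 per 10000 were taken. This left 1987 barcodes, and 159 of them had a CD3E UMI. The 59 cells without a UMI of CTSW or ENSBTAG00000055197 are called members below. The other CD3E cells were 100, of which 13 came from calf 2 and 87 from calf 3. The files list ENSBTAG00000055197 without a symbol. It was taken for the bovine homolog of TRDC, the delta constant segment of the T cell receptor, and is called the homolog here, although the files do not state that pairing.

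The study profiled rumen tissue of cattle by droplet-based single-cell RNA sequencing to compare its cells before and after the animals become ruminants. Its methods give the breed, Holstein, for the adult animals. The libraries analysed here came from 3 newborn calves sampled 1 day after birth, with 1 library per calf. The outer muscle layers had been removed, and the remaining wall was dissociated with EDTA, trypsin and further enzymes, with no sort for immune cells. Adult libraries were not analysed here.

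CD3E is a chain of the CD3 complex, which carries the signal of the T cell receptor into the cell and is present on nearly all T cells. Helper T cells carry the coreceptor CD4 and cytotoxic T cells the coreceptor CD8, a dimer of CD8A and CD8B chains. Cathepsin W, the product of CTSW, is a protease of cytotoxic T and natural killer cells. Gamma-delta T cells, which are abundant in young cattle, carry a receptor built from gamma and delta chains and often lack both coreceptors.

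The 3 libraries held 7529, 12043 and 11656 barcodes with 82263092, 89803289 and 106145091 UMIs in total. Kept barcodes numbered 4886, 10654 and 10480. The members were 0.563% of the kept barcodes of calf 3 (95% exact binomial interval 0.429 to 0.726). No member was found in calf 1 or calf 2, where 0 of the kept barcodes allows shares of up to 0.0614% and 0.0282% (3 counts of the total), with exact upper limits of 0.0755% and 0.0346%. Calf 1 had no CD3E cell within the keratin and BOLA-DRA limits. Calf 2 had 13 and all of them had CTSW or the homolog, so that its share of members among CD3E cells was 0 of 13 (0 to 24.7%), against 40.4% (32.4 to 48.8) in calf 3. Within the same limits, PTPRC, the leukocyte surface phosphatase CD45, was detected in 4, 8 and 189 barcodes of the 3 calves. All intervals given here cover counting error only. With members in a single library, no value of theirs has a replicate check, and no test across calves was possible.

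The limits of the rule set which cells were counted. The highest keratin sums among the members were 9.55 and 9.47 UMIs per 10000, and the lowest among the calf 3 cells that met the other conditions were 10.3 and 10.4. Among the members 16 had no keratin UMI, and the median sum was 4.53, against 3.54 in the other CD3E cells of calf 3. The keratin limit left out 32 calf 3 cells without CTSW and the homolog. Of these, 12 had 10 to 20 keratin UMIs per 10000, while 20 had 29.8 or more, with a median of 105 and a median depth of 9045.5 UMIs. Before the keratin limit, calves 1 and 2 had 2 such cells each, all above it. The BOLA-DRA limit left out 1 cell, at 187 per 10000, while 57 members had no BOLA-DRA UMI and the highest member value was 3.66.

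**Figure D1:**
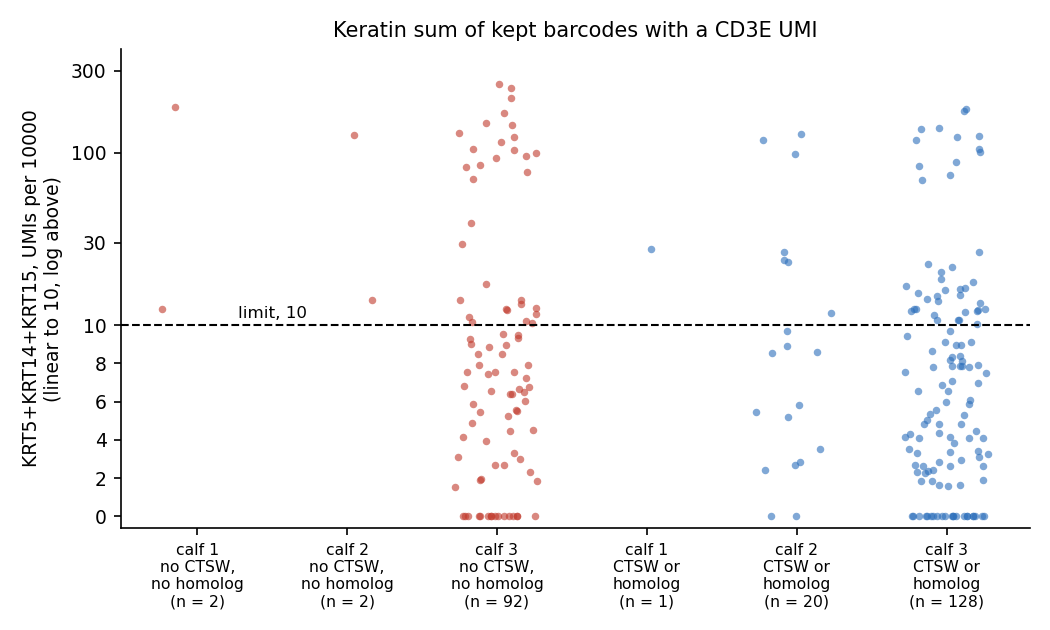
Sum of KRT5, KRT14 and KRT15 (y axis, UMIs per 10000 UMIs of the cell, linear to 10 and logarithmic above) in every kept barcode with a CD3E UMI, by calf and by absence or presence of CTSW or the homolog (x axis), with 1 point per cell and a dashed line at the limit of 10. The cells of calf 3 without CTSW and the homolog continue across the limit, with the 59 members and the cell left out for BOLA-DRA below 10, 12 between 10 and 20 and 20 at 29.8 or higher.

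The label of T cells was borne out by further T cell genes in most members but not in all. The members had a median of 3 CD3E UMIs and at most 7. A single CD3E UMI was the basis of 10 of them. At least 1 of the other T cell genes CD3D, CD3G, CD247, CD2, CD5, CD6 and LCK was detected in 54 of 59 members and at least 2 of them in 39. PTPRC was detected in 47. Of the 5 members with no second T cell gene, 3 had 1 CD3E UMI, no PTPRC UMI and 23, 12 and 4 UMIs of 7 endothelial genes, as described below. CD3E itself was detected in 0.815% of the 8953 epithelial barcodes of calf 3, those with keratin sums of 10 or more, whose median depth was 7974 UMIs.

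An absent CTSW UMI depends on depth, and the depths of the classes were close. The members had a median of 3031 UMIs (lowest 1279, highest 12887), 1047 detected genes and 4.44% mitochondrial UMIs. The 87 other CD3E cells had medians of 3034 UMIs, 1021 genes and 4.77%. These divided into 50 cells with CTSW and no homolog (CTSW+ cells, median 2550 UMIs) and 37 with the homolog (homolog+ cells, median 3820 UMIs), 7 of which also had CTSW. A single CTSW UMI was found in 17 of the 50 CTSW+ cells, and 20 of the 87 cells had only 1 UMI of CTSW and the homolog together. When every cell was thinned at random to 1000 UMIs, 56 of the 87 cells kept a CD3E UMI and 16 of these 56 (28.6%) no longer showed CTSW or the homolog. At 2000 UMIs this was the case for 4 of 68 cells (5.88%). How many members carried CTSW transcripts that were not captured was not tested.

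The levels of the members were also set against those of the epithelial barcodes of calf 3. The 20 genes with the highest ratio of levels, among those detected in at least 20% of the members, were led by CTLA4, an inhibitory receptor that competes with CD28 for its ligands, which was 1074 times higher. They included DPP4, the peptidase CD26, at 682 times, ICOS, a costimulatory receptor, at 506 times, CXCR6, a chemokine receptor of tissue lymphocytes, at 431 times, and CD2, an adhesion receptor, at 393 times. CD4 was at 370 times. The adaptors LAT and SIT1, the receptors SLAMF1, SLAMF6, CD5 and IL2RB and the GTPases GIMAP4 and GIMAP7 were also among the 20, together with CD3E, on which the cells were chosen, and 4 identifiers without a symbol. These ratios describe cells chosen on CD3E and on low keratin levels, and no test was made of them.

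For the comparison with the other CD3E cells of calf 3, UMIs were summed over the 59 members (206887 UMIs) and over the 87 other cells (306902 UMIs), and a level is given as UMIs per 10000 of these sums. Absence of CTSW and the homolog separates these classes, so the differences are those of the contrast that the rule made. They are given as ratios with exact counting intervals and without a test. Of 5053 genes with at least 10 UMIs over both sums, 678 were at least 2 times higher in the members (13.4%) and 402 were at least 2 times lower (7.96%), with a median log2 ratio of 0.11. Scaling by the median of ratios turned this balance, to 498 higher and 558 lower. Without cells with MKI67 or TOP2A it was 440 and 442 of 4226. Gene lists are described below by how many of their genes passed the limit of 2 times, beside the background shares of 13.4% and 7.96%. Genes of the rule were left out.

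The levels of the helper coreceptor and of some surface receptors were higher in the members. CD4 had 27 UMIs in 17 members and 1 UMI in 1 of the other cells, which is 1.31 against 0.033 UMIs per 10000 and a ratio of 40.1 (counting interval 6.60 to 1640). CTLA4 had 42 UMIs in 17 members, with a median of 2 and a maximum of 10 UMIs per positive cell, and 1 UMI in 1 other cell, a ratio of 62.3 (10.6 to 2519). Both genes were thus near absent from CTSW+ and homolog+ cells alike. TNFRSF4, the costimulatory receptor OX40, had 43 UMIs in 11 members and 9 UMIs in 5 other cells, a ratio of 7.09 (3.41 to 16.5), and 13 of its 43 UMIs lay in 1 cell. TNFRSF9, another receptor of that family, was lower at a ratio of 0.141. The costimulatory receptor ICOS was detected in 30.5% of the members and 26.4% of the other cells. Of 13 surface receptors tested, 5 were at least 2 times higher and none was 2 times lower, with a median log2 ratio of 0.42. Besides CTLA4 these were SLAMF1 at 3.56 (1.64 to 8.34), CD27, a TNF receptor family costimulator, at 3.04 (1.72 to 5.58), CD40LG and CD2. CD40LG, the ligand by which helper cells activate B cells, had 8 UMIs against 5 (4 against 5 and a ratio of 1.50 without cells with MKI67 or TOP2A). CD2 was at 2.05 (1.24 to 3.42). Its shares changed order with depth, at 15.3% of members and 9.20% of the other cells when thinned to 1000 UMIs. At 2000 UMIs they were 18.4% and 21.3%.

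After thinning to 1000 UMIs, CD4 was detected in 8.47% of the members (2.81 to 18.7) and in 0 of 87 other cells (upper bound 4.15%), against 0.0786% of the epithelial barcodes. CTLA4 was detected in 13.6% of thinned members (6.04 to 25.0), in 0 of 87 other cells and in 0.0225% of the epithelial barcodes. Without thinning the shares were 28.8% (17.8 to 42.1) for either gene in the members and 1.15% in the other cells. The order of the classes was thus the same at both depths. CD3D was detected in 66.1% of the unthinned members, and its summed level differed by a ratio of 1.27 (0.907 to 1.76). After thinning to 1000 UMIs, CD3D was in 28.8% of the members and 14.9% of the other cells. At 2000 UMIs its shares were 46.9% and 41.3%.

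**Figure D2:**
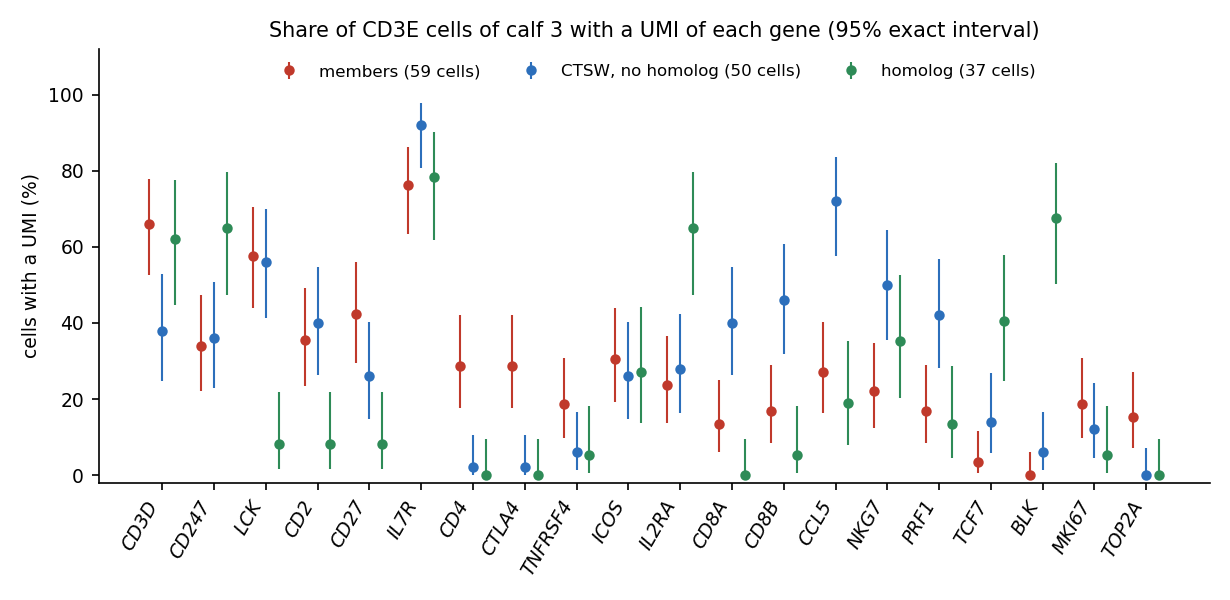
Share of CD3E cells of calf 3 with a UMI of each gene (y axis, percent, unthinned; x axis, genes) in the 59 members, the 50 CTSW+ cells and the 37 homolog+ cells, with points for the share and bars for the exact 95% interval. CD4 and CTLA4 were found in 28.8% of the members each, and IL7R in 76.3%, while NKG7 and CCL5 were more often found in CTSW+ cells.

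Of the receptor complex, 2 genes were tested, and 1 of them was at the limit of 2 times. CD247, the zeta chain of the complex, had 32 against 95 UMIs, a ratio of 0.4997, which was 0.563 without the cells with endothelial UMIs described below. It was at 1.12 times CTSW+ cells and at 0.312 (0.199 to 0.478) of the homolog+ cells. Among 13 proximal signalling genes, none was 2 times higher and ZAP70, the kinase that binds CD247, was lower at 0.355 (0.215 to 0.565), and their median log2 ratio was -0.06. LCK, the kinase that starts receptor signalling, had 53 UMIs in 34 members and 47 in 31 other cells, a ratio of 1.67 (1.11 to 2.53). Only 3 of those 47 UMIs were in homolog+ cells, so that the ratio was 12.6 (4.07 to 62.8) against homolog+ cells and 0.931 against CTSW+ cells. CD2 showed the same split, with 4 UMIs in homolog+ cells and a ratio of 7.11 (2.57 to 27.4) against them, as did CD27 with 3 UMIs and 9.24 (2.94 to 46.7). LCK, CD2 and CD27 levels in the members were therefore nearer to CTSW+ cells than to homolog+ cells.

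Several of the genes with the lowest ratios were found mainly in homolog+ cells. RHEX, a regulator of erythropoietin-driven growth, had no UMI in the members and 94 in the other cells, 93 of them in homolog+ cells, which puts it at least 21.1-fold higher there (0 taken as 3 counts over the class). BLK, a SRC-family kinase of B and gamma-delta T cells, had none against 68, at least 15.3-fold higher in the other cells, and 62 of the 68 UMIs lay in homolog+ cells. ENSBTAG00000050953 had none against 73, all in homolog+ cells, but 4 against 2 when cells were thinned before the rule was applied, and ENSBTAG00000000144 had 26 against 422, a ratio of 0.0914 (0.0590 to 0.136). TCF7, a transcription factor of naive and progenitor T cells, had 2 UMIs in 2 members and 39 UMIs in 22 other cells, a ratio of 0.0761 (0.0089 to 0.294), and was the lowest of 8 tested naive and recirculating genes. TNFRSF9, the activation receptor 4-1BB, was at 0.141 (0.0591 to 0.291). IL2RA, the high-affinity interleukin 2 receptor chain, was at 0.405 (0.246 to 0.641). IL2RA was detected in 14 of 59 members, 14 of 50 CTSW+ cells and 24 of 37 homolog+ cells, and the ratio was 0.515 (0.294 to 0.888) against CTSW+ cells and 0.328 (0.193 to 0.542) against homolog+ cells. Of the 3 tested gamma-delta list genes 2 were lower, BLK and CD163L1, a scavenger receptor of the WC1 family, the latter with 1 UMI against 9.

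The members were chosen for absent CTSW, and further cytotoxic genes were also lower in them. Of 13 tested, 6 were at least 2 times lower and none was higher, with a median log2 ratio of -0.95. Among cells with a second T cell gene, 6 of 13 were lower and 1, GZMB, was higher. Their summed level was 8.31 UMIs per 10000 in the members (7.12 to 9.65), 29.2 in CTSW+ cells and 8.23 in homolog+ cells. NKG7, a granule membrane protein, had 13 UMIs in 13 members and 94 in 38 other cells, a ratio of 0.205 (0.105 to 0.368). PRF1, the pore-forming perforin, had 10 UMIs in 10 members and 54 in 26 other cells, a ratio of 0.275 (0.125 to 0.545), which turned to 1.42 against homolog+ cells alone. GNLY, a granule peptide, had 2 against 27, and its direction turned, with 4 against 1, when cells were thinned before the rule was applied. XCL1, a chemokine, and FCER1G, an adaptor of activating receptors, had no UMI in the members against 23 and 10. With 0 taken as 3 counts, FCER1G was at most 0.445. This bound was 0.507 without the cells with endothelial UMIs described below and 0.562 without cells with MKI67 or TOP2A, short of the limit in both. FASLG, a death ligand, had 2 UMIs against 8, and 2 against 5, a ratio of 0.749, without cells with MKI67 or TOP2A. CCL4, a chemokine outside the list, had 28 UMIs in 6 members and 175 UMIs in 20 other cells, all of them CTSW+. No member had more than 1 UMI of NKG7 or PRF1.

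Some members nevertheless carried cytotoxic and CD8 transcripts. CCL5, a chemokine of effector T cells, was detected in 16 members with up to 13 UMIs and in 43 of the other cells, a ratio of 0.518 (0.391 to 0.681). It was at 0.316 of CTSW+ cells and at 1.71 (1.10 to 2.71) times homolog+ cells. CD8A was detected in 8 members, 20 CTSW+ cells and no homolog+ cell. CD8B was detected in 10 members and 25 of the other cells, a ratio of 0.494, which turned to 5.33 against homolog+ cells alone and was 0.554 among cells with a second T cell gene. Of the 8 CD8A members, 6 had CCL5 (75.0%, 34.9 to 96.8) and none had CTLA4.

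**Figure D3:**
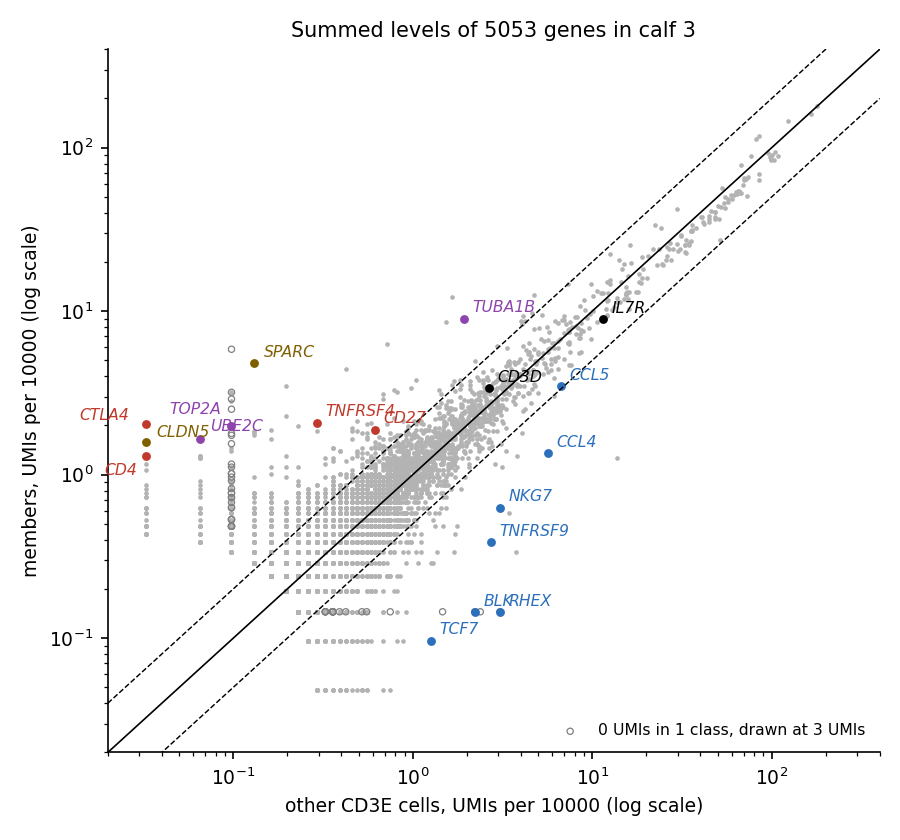
Summed levels of 5053 genes in calf 3 (x axis, the 87 other CD3E cells; y axis, the 59 members; both UMIs per 10000 on log scales), with 1 point per gene, open points for genes with 0 UMIs in a class drawn at 3 UMIs, a solid line at equal levels, dashed lines at ratios of 2 and 0.5, and chosen genes named and coloured by group (surface receptors red, cell cycle purple, endothelial and matrix brown, genes lower in members blue, IL7R and CD3D black). CTLA4 and CD4 lie far above equal levels at ratios of 62.3 and 40.1, and RHEX and BLK, with 0 UMIs in the members, far below.

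Genes of tissue residence had a summed level of 28.1 UMIs per 10000 in the members (25.8 to 30.5), 34.8 in CTSW+ cells (32.0 to 37.8) and 27.2 in homolog+ cells. RGS1, a G protein regulator high in tissue T cells, had 395 UMIs in 53 members and 707 in 84 other cells, a ratio of 0.829 (0.731 to 0.939). CXCR6 was at 1.29 (0.880 to 1.89) and CD69, a retention receptor, at 0.817 (0.594 to 1.12). CD69 differed in direction between the classes, at 0.518 (0.372 to 0.716) of CTSW+ cells and 2.20 (1.33 to 3.79) times homolog+ cells. Of 6 residence genes tested, PRDM1, the repressor BLIMP1, was the one past the limit, with 34 UMIs in 19 members, 14 in 10 other cells and a ratio of 3.60 (1.88 to 7.27). After thinning to 1000 UMIs, PRDM1 was in 15.3% of members (7.22 to 27.0), 2.30% of the other cells and 3.83% of epithelial barcodes. CCR9, ZNF683 and CCR10 had no UMI in the members. IL7R, the interleukin 7 receptor that sustains resting T cells, was detected in 45 of 59 members (76.3%, 63.4 to 86.4) and in 86.2% of the other cells, a level ratio of 0.775 (0.645 to 0.929). Thinned to 1000 UMIs, the shares were 59.3% and 56.3%, against 0.550% of epithelial barcodes. Among 9 cytokine receptor and JAK-STAT genes none passed the limit, with a median log2 ratio of -0.02. IL2RB, the shared interleukin 2 and 15 receptor chain, was the nearest to it at 1.95.

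Type 17 cytokine genes, which mark a helper program of barrier tissues, were carried by few members and unevenly. IL17A had 43 UMIs in 4 members, 35 of them in 1 cell, and 60 in 7 other cells. IL17F had 97 UMIs in 6 members, 61 of them in 1 cell, and 233 in 12 other cells, a ratio of 0.618. At least 1 of these 2 cytokines was detected in 7 members (11.9%, 4.91 to 22.9) and in 13.8% of the other cells, or in 10.2% and 10.3% after thinning to 1000 UMIs, against 0.0898% of epithelial barcodes. The intervals of the 2 classes overlapped widely. In the members, 1 cell that also had MKI67 and TOP2A held the 35 IL17A and 61 IL17F UMIs. Without cells with MKI67 or TOP2A in both classes, in an alternative chosen after seeing the data, 4 IL17A and 28 IL17F UMIs were left in the members and 60 and 225 in the other cells, ratios of 0.125 and 0.233. Of 8 tested genes of the type 17 list, 2 were at least 2 times higher. The ratio of IL1R1, an interleukin 1 receptor, was 2.42 (1.32 to 4.53), but after thinning to 1000 UMIs it was in 8.47% of members (2.81 to 18.7), 5.75% of the other cells and 3.04% of epithelial barcodes, so its share was not set apart from the background. IL22 had 18 of its 22 UMIs in 1 member. IL26, IL23R and CCL20 had no UMI in the members.

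Genes of other helper programs were sparse apart from GATA3. GATA3, a type 2 and general T cell transcription factor, was detected in 20 members and 31 other cells, a ratio of 1.14 (0.736 to 1.76). CCR4, a chemokine receptor of helper cells, had 10 UMIs in 5 members and 2 in 1 other cell, a ratio of 7.42 (1.58 to 69.6). Without cells with MKI67 or TOP2A, CCR4 had 5 UMIs against 2, a ratio of 4.68. It was in 0 of 59 members and 1 of 87 other cells after thinning to 1000 UMIs, and in 3 of 49 and 1 of 75 at 2000 UMIs. IFNG, the type 1 cytokine, had 22 UMIs in 8 members and 29 in 13 other cells, a ratio of 1.13. None of the 3 tested type 1 genes passed the limit. FOXP3, the regulatory T cell factor, had 1 UMI in each of 2 members and none in the other cells. Of 5 regulatory list genes tested, TNFRSF4 was higher and IL2RA and TNFRSF9 were lower, so the list differed in both directions.

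Within the members, CD4 and CD8 transcripts were found mostly in different cells. CD4 was detected in 17, CD8A or CD8B in 14, both in 1 and neither in 29. CTLA4 was detected in 11 of the 17 CD4 members (64.7%, 38.3 to 85.8) and in 6 of the 42 members without CD4 (14.3%, 5.43 to 28.5). Summed over cells, CTLA4 was 6.27 times higher in the CD4 members (3.07 to 13.8). CD7, an immunoglobulin-family receptor, was 6.23 times higher (2.12 to 22.1), CCR4 5.19 (1.18 to 31.1), IL2RB 2.97 (1.54 to 5.80), CD2 2.72 (1.39 to 5.38), CD27 2.11 (1.07 to 4.17), CXCR6 2.07 (1.16 to 3.65) and the immediate-early gene IER2 2.00 (1.24 to 3.22). GZMM, a granule protease of cytotoxic cells, was also higher at 11.1 (1.24 to 526), with 5 UMIs in 1 CD4 member against 1 UMI in the rest. The list that holds IER2 went both ways. EGR1 was at 0.463 (0.138 to 1.24), JUN at 0.584 (0.466 to 0.727), JUNB at 0.688 (0.477 to 0.975) and HSP90AA1 at 1.38 (1.18 to 1.62). Lower in the CD4 members were IL17F at 0.0957 (0.0255 to 0.253), CD96, an adhesion receptor of T and natural killer cells, at 0.139 (0.0033 to 0.895) and IL1R1 at 0.238 (0.0464 to 0.772), and IL17A had no UMI in them. IL17F was detected in 1 of the 17 CD4 members and 5 of the 42 others, where 1 cell held 61 of the 93 UMIs. IL1R1 was detected in 17.6% of the CD4 members and 21.4% of the others. IL22 of the same type 17 list was the other way, with all 22 UMIs in 2 CD4 members, at least 16.3-fold higher, and RORA had 4 UMIs in either group, a ratio of 2.22 (0.414 to 11.9). Of 129 list genes other than CD4 with at least 5 UMIs in the members, 18 were at least 2 times higher and 17 at least 2 times lower in the CD4 members. No share over all genes is given for this split, so these counts have no background beside them. Median depth was 3117 UMIs in CD4 members and 2710 in the rest.

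The IL17 members and the dividing members overlapped with other patterns. Of the 7 IL17 members, 6 had ICOS and 6 had GATA3. CD4 was detected in 1 of the 7, CD8B in 1 and CD8A in none. Their median depth of 5058 UMIs was above the 2710 of the other members. MKI67 or TOP2A was detected in 12 members, of which 4 had CD4, 3 had an IL17 gene and none had CCL5. Their median depth was 4260 UMIs against 2648 in the other members. CCL5 members were shallower, at 2249.5 against 3129.

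**Figure D4:**
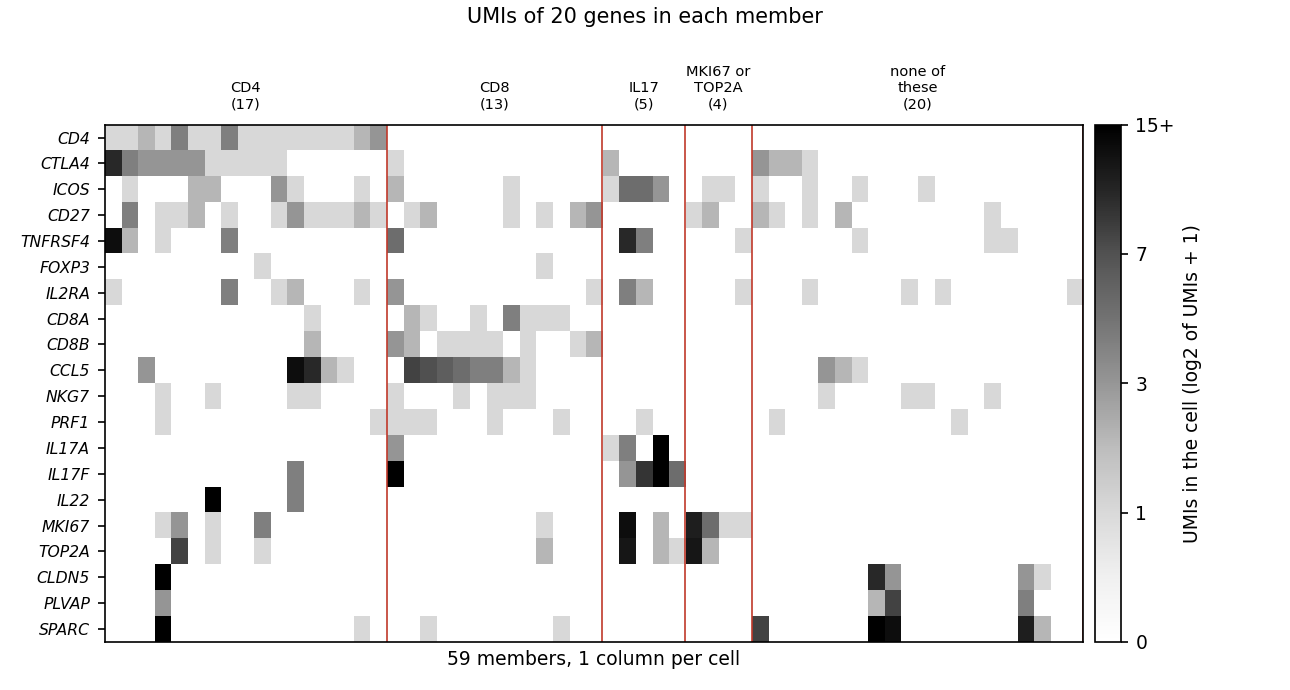
UMIs of 20 genes (rows) in each of the 59 members (columns, shaded by log2 of UMIs + 1), with members grouped by CD4 (17 cells), then CD8A or CD8B (13), IL17A or IL17F (5), MKI67 or TOP2A (4) and none of these (20). CTLA4 is concentrated in the CD4 group, CCL5 is found in 8 cells of the CD8 group and 5 of the CD4 group, and the UMIs of CLDN5, PLVAP and SPARC in a handful of cells.

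Cell cycle genes were higher in the members, and a small number of cells held most of their UMIs. Of 8 tested, 7 were at least 2 times higher, with a median log2 ratio of 1.84 and a summed level of 31.2 UMIs per 10000 (28.9 to 33.7) against 9.03. MKI67, a protein of dividing cells, had 43 UMIs in 11 members and 18 in 8 other cells, a ratio of 3.54 (2.00 to 6.53). TOP2A, the mitotic topoisomerase, had 41 UMIs in 9 members and none in the other cells, at least 20.3-fold higher (0 taken as 3 counts over the class). UBE2C, which tags mitotic proteins for degradation, had 34 against 2. PCNA, the replication clamp, was at 3.46 (2.23 to 5.50), STMN1 and TUBA1B, genes of the microtubules, were at 3.62 and 4.68, and HMGB2, a chromatin protein, at 2.06. After thinning to 1000 UMIs, HMGB2 was in 32.2% of members and 39.1% of the other cells. MKI67 was in 10.2% of members, 3.45% of the other cells and 2.25% of epithelial barcodes. In the same order, STMN1 was in 8.47%, 5.75% and 11.1%, and TUBA1B in 30.5%, 16.1% and 29.9%. Outside the list, the spindle protein TPX2 had 36 UMIs in 14 members and 4 in 4 other cells, a ratio of 13.4 (4.79 to 51.6), and the condensin subunit SMC4 was at 4.24. Of 646 cell cycle UMIs, 515 were in 8 members with 15 or more each, the highest with 154. Cells with MKI67 or TOP2A were 12 of 59 members and 8 of 87 other cells. Without these cells in both classes, an alternative chosen after seeing the data, TUBA1B was at 1.38, PCNA at 1.33 and TPX2 at 2.34, and STMN1 and HMGB2 turned to 0.25 and 0.849. In the same setting CD4 (20 against 0 UMIs) and CTLA4 (34 against 0) remained at least 12.5-fold and 21.2-fold higher.

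Genes of endothelial cells were found in a few members. The 7 endothelial genes had a summed level of 4.35 UMIs per 10000 in the members (3.50 to 5.35) and 0.521 in the other cells. No endothelial gene of the list was at 0 in the members, but 49 of the 59 had no UMI of any, and 5 members with 3 or more UMIs held 85 of the 90 UMIs (29, 23, 17, 12 and 4). The same 5 members held 92 of the 119 UMIs of the fibroblast list, of which 100 were of SPARC, a matrix protein gene that endothelium also carries. No other fibroblast gene was 2 times higher. DCN, with 3 UMIs against 11, was at a ratio of 0.405, which turned to 1.40, with 3 against 4, without cells with MKI67 or TOP2A. COL1A1, COL1A2, COL3A1 and LUM had 3 to 5 UMIs each in the members and ratios of 0.890 to 1.24, and PDGFRA, PDGFRB and MFAP5 were at 0 in the members. The members with 29 and 17 endothelial UMIs also had 5 and 4 CD3E UMIs and 4 and 1 of the 7 further T cell genes, and the remaining 3 had 1 CD3E UMI each and no other T cell gene. Among the other CD3E cells, 1 had 3 or more endothelial UMIs. The higher levels of CLDN5, a tight junction protein (33 UMIs against 1), S1PR1, the receptor for lymphocyte exit that endothelium also carries (26 against 2), and SPARC (100 against 4), stood with these cells. Without them, in an alternative chosen after seeing the data, CLDN5 and S1PR1 were too low to compare, SPARC went from a ratio of 37.1 to 4.65 and SYNE2, a nuclear envelope protein, from 4.52 to 1.60. CTLA4 and CD4 were then at 65.9 and 43.9, TNFRSF4 at 7.88, and CD5, IL2RB and CISH passed the limit of 2 times. Whether these 5 barcodes held RNA of more than 1 cell was not tested.

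**Figure D5:**
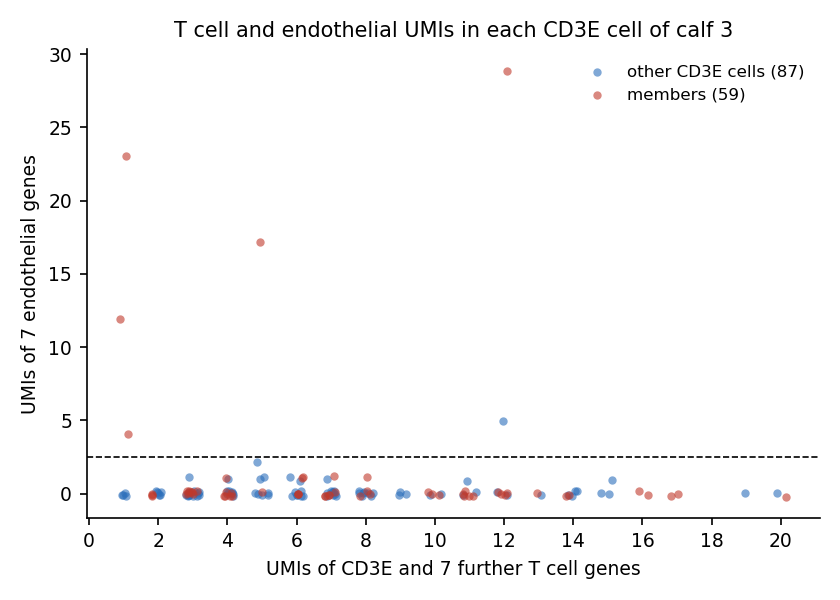
UMIs of 7 endothelial genes (y axis) against UMIs of CD3E and 7 further T cell genes (x axis) in each CD3E cell of calf 3, with members and other CD3E cells in different colours, points shifted slightly at random to separate them, and a dashed line between 2 and 3 endothelial UMIs. Most members lie at 0, and 5 members and 1 other cell lie above the line.

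Other cell types left few UMIs in the members. No erythroid gene was detected and B and plasma cell genes summed to 5 UMIs, with MS4A1, PAX5 and JCHAIN at 0. Mast cell and granulocyte genes summed to 3 UMIs. The dendritic cell and macrophage list was at 2.66 UMIs per 10000 against 8.31 in the other CD3E cells, where 1 homolog+ cell held 200 of 255 UMIs, and FLT3, LYZ, C1QA and SPI1 were at 0 in the members. The epithelial list, from which the keratins of the rule were left out, was at 3.19 UMIs per 10000 in the members, 2.48 in the other CD3E cells and 71.1 in the epithelial barcodes. Immediate-early and heat-shock genes, which respond to tissue dissociation among other stimuli, were at 177 UMIs per 10000 in the members (172 to 183) and 145 in the other cells, and of 16 tested only DUSP1, a stress-induced phosphatase, passed the limit at 2.01, which was 1.78 without the cells with endothelial UMIs and 1.98 among cells with a second T cell gene. Their part in the differences above was not tested.

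The remaining genes with the largest ratios included IFI27, an interferon-induced gene, GBP4 and ISG20. IFI27 had 177 UMIs in 30 members and 47 in 20 other cells, a ratio of 5.59 (4.03 to 7.88), which was 2.41 without the cells with endothelial UMIs. GBP4, an interferon-induced GTPase, had 16 UMIs against 2, a ratio of 11.9 (2.79 to 106), and ISG20, an interferon-induced exonuclease, 23 against 7, a ratio of 4.87 (2.03 to 13.5). DPP4 had 16 UMIs in 13 members and 5 in 5 other cells, a ratio of 4.75 (1.66 to 16.6). ENSBTAG00000019437 was at 13.4, and ENSBTAG00000000432, detected in 48 members, was at 2.05 against all other cells and at 14.2 (7.32 to 31.6) against homolog+ cells. IFI27, GBP4 and ISG20 were picked after their values were seen, and no list of interferon genes was tested.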

How the data were processed

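The authors deposited raw UMI counts per gene and barcode for each newborn library, made with Cell Ranger 3.1.0 on the ARS-UCD1.2 genome, per the study's methods and the labels. They precede the study's filters, which were applied here, and its doublet removal. Scrublet (scanpy 1.11.5, default threshold) marked 0, 0 and 1 kept barcodes and so did not work. The 6% of barcodes with the highest scores, left out as an alternative, held no member and none of the other CD3E cells compared. Libraries shared 87 barcodes, 1 of them a member's.

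The members and gene lists were chosen with earlier results of these data known. Counts were summed over the cells of a class in calf 3. A level is UMIs per 10000 and genes with at least 10 UMIs over both sums were compared, the 7 rule genes left out. The test planned on sums per calf was not run, because a single calf held members, and a ratio of at least 2 or at most 0.5 took its place. Ratios carry conditional binomial intervals, levels Poisson and shares Clopper-Pearson 95% intervals (scipy 1.17.1). A class at 0 was set to 3 counts. Cells were thinned with a fixed seed. The ratios and their intervals were tested on simulated Poisson sums of each class. These sums had no spread between cells, so genes with most UMIs in a single cell were not covered.

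Genes named are those of the lists, the 15 largest ratios in each direction among genes past 2 times and detected in at least 20% of the higher class (a rule that replaced the planned one after the members' calf was known), and the 20 leading genes against epithelial barcodes. Some genes of these lists are not reported here. The gene names are those in the files, which list 2 GZMB identifiers; TRAC, TRBC1, TRBC2, TRGC1 and TRGC2 are not among them. Alternatives changed the limits, depth, doublets, filter, scaling and comparison class.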

Additional observations from a re-analysis of the deposited data

Results flagged for a closer look

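Barcodes outside the quality limits, which no comparison above used, included some that met the rest of the rule. In calf 2, 1 of 1389 such barcodes had a CD3E UMI, no CTSW or homolog UMI and low keratin and BOLA-DRA levels. It had 2417 UMIs, 182 detected genes and 64.3% mitochondrial UMIs. In calf 3, 4 of 1176 did, with 798, 1033, 5788 and 17411 UMIs. These failed with 454 and 474 detected genes, with 44.9% mitochondrial UMIs and with 4285 detected genes. Calf 1 had none. They were marked because they carry a signal in data outside the main measurement.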

How the results depend on the processing

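All 59 members came from 1 library, so no value has a replicate check, and an absent UMI cannot be told apart from an uncaptured transcript at about 3031 UMIs per cell. No analysis paired by calf was possible, because a single calf held members. Pooling the cells of all calves, with no replicate block, gave 685 genes higher and 409 lower. Leaving out 1 calf at a time left 0 to 59 members, 0 without calf 3. Leaving out calves 1 or 2 could change no comparison, because only calf 3 cells were compared. The planned fits by edgeR and DESeq2 were not run for the same reason. A keratin limit of 5 per 10000 left 31 members, and a limit of 20, added after seeing the data, gave 73, with 1 each in calves 1 and 2. The other settings (BOLA-DRA, mitochondrial share, 2 CD3E UMIs, doublet scores, a second T cell gene, endothelial UMIs) gave 49 to 59. Thinning to 1000 UMIs before the rule gave 56, a count that does not show whether the same cells met it. In the draw used for the shares, 44 of the 59 members kept a CD3E UMI at 1000 UMIs. Of the 56 other CD3E cells that kept one, 16 no longer showed CTSW or the homolog.

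The counts of genes higher and lower by 2 times, 678 and 402, were 2819 and 1641 of 10979 with no filter on low counts, 148 and 62 of 2116 at 30 or more UMIs, and 152 and 85 of 1233 after thinning before the rule, with 34 and 15 of these shared. Against CTSW+ cells only they were 733 and 246 of 4122, and without cells with MKI67 or TOP2A (added after seeing the data) 440 and 442 of 4226. Scaling by the median of ratios moved the median log2 ratio by 0.2064 and gave 498 higher and 558 lower. Of 66 named genes followed over 19 alternatives, these changed direction: after thinning, ENSBTAG00000050953 (1.60), GNLY (3.20) and CST3 (1.44); against CTSW+ cells, CD247 (1.12) and CD74 (4.64); against homolog+ cells, CCL4 (28 against 0 UMIs, at least 6.63), CD8B (5.33) and PRF1 (1.42); without cycling cells, STMN1 (0.25), HMGB2 (0.849) and DCN (1.40). After thinning, a further 24 genes left the counting interval of their first value (or, where a class was at 0, the limit of 2 times) and 20 did not. CD4 and CTLA4 were higher in every setting that left a comparison, by the smallest bounds after thinning (for CD4 11 against 0 UMIs, at least 2.93-fold, and for CTLA4 6 against 0, at least 1.60-fold). The settings without calf 1, without calf 2 or without barcodes marked by Scrublet score removed no compared cell, so they could not alter these values. The cause of the changes in the other settings was not tested.

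Shares of members at 1000 UMIs differed from unthinned shares for CD4 (28.8%), IL7R (76.3%), CD2 (35.6%), CD3D (66.1%), LCK (57.6%), CTLA4 (28.8%), ICOS (30.5%) and NKG7 (22.0%), and from those at 2000 UMIs for CD4 (28.6%), CD3D (46.9%), LCK (44.9%), CTLA4 (26.5%) and ICOS (24.5%).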
